A study of Mus musculus with 6 samples.

Results

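The replication-dependent histone genes were followed as a group through 6 RNA libraries of EML cells, a mouse haematopoietic progenitor line kept in stem cell factor. Members were the entries whose RefSeq accession maps to a current symbol of the series H1f1 to H1f5, H2ac, H2bc, H3c or H4c, with a maximum of at least 1 RPKM (reads scaled by transcript length and by the mapped total of the library) in any library. This gave 62 of 23146 entries, and the minimum of 1 RPKM removed 0 of them. They carry 60 of the 63 symbols of that form in the RefSeq table; H2ac14, H2ac18 and H2ac24 matched no entry and were not analysed here. By class there were 4 entries of H1, 17 of H2A, 16 of H2B, 12 of H3 and 12 of H4. One further entry, shared by H1f4 and H2bc6, was kept out of the class values. H2ac19, H2ac23 and H2bc23 each stand on 2 entries, and the 2 entries of a symbol hold nearly the same reads.

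The libraries fall into 4 groups, all of the EML line, which the labels assign to bone marrow and strain BDF1. The knockdown control (n = 2) and the KAI1 knockdown (n = 2) form one arm, and the overexpression control (n = 1) and the KAI1 overexpression (n = 1) the other. The design calls the control cells wildtype. KAI1 is a tetraspanin of the cell membrane encoded by Cd82. The sources used here state neither how KAI1 was lowered or raised nor any poly(A) selection. Replicates are named without separate cultures, and p-values therefore cover only the spread between these libraries, which may be technical.

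Each nucleosome wraps DNA around pairs of the core histones H2A, H2B, H3 and H4, and H1 binds the linker DNA where it enters and leaves. Cells make most of this protein in S phase from clustered genes without introns. Their mRNAs usually end, instead of in a poly(A) tail, in a short stem-loop that is bound by the protein SLBP and cut with the help of the U7 small nuclear RNP. Outside S phase these mRNAs are degraded rapidly, so their level follows DNA synthesis closely. Some of the genes also give polyadenylated transcripts, which are known from cells that leave the cycle or differentiate. Variant histones, such as H2AZ and H3.3, come from other genes with ordinary poly(A) tails and are made throughout the cycle.

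The stem-loop is the feature that sets these mRNAs apart, and it was found in the annotated transcripts (GENCODE M21) of 37 of the 48 members that have annotated sequence beyond the stop codon. It began 21 to 58 bases after the stop codon, with a median of 31. Among 58736 other coding transcripts, searched over their whole length for the same stem-loop pattern, 23 held it (0.0392%). There were 6 distinct 16-base forms. They are shown 5′ to 3′ as DNA letters, with the 4 bases of the loop in capitals, because the arms of the stem divide the classes.
H1, H2A, H2B and H3, 21 entries: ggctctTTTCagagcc
H2B and H3, 5 entries: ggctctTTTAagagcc
H2A, 1 entry (H2ac20): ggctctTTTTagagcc
H4, 6 entries: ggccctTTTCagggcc
H4, 2 entries (H4c9 and H4c14): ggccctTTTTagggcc
H4, 2 entries (H4c2 and H4c11): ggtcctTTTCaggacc
All 10 of the H4 loops found had ggccct or ggtcct as the 5′ arm, and all 27 of the loops of the other classes had ggctct. In 16 of the 37 members the annotated transcript runs on for more than 100 bases beyond the loop. Among these, H1f2 goes on for 840 bases, H4c14 for 1257, H2ac6 for 2010 and H1f3 for 4884.

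Promoters also differed by class, and the 150 bases before the start are printed for an H2B, an H1 and an H4 gene (RefSeq, GRCm38.p6), with the motifs searched in capitals. The 5 motifs, matched without mismatches on both strands, were CCAAT (bound by NF-Y), TATAAA, ATTTGCAT (the octamer, bound by POU2F1), AAACACA (known from H1 promoters) and GGTCC (part of an H4 element bound by HINFP). None of these letter strings contains another.
H2bc12, chr13:22035671-22035820, plus strand: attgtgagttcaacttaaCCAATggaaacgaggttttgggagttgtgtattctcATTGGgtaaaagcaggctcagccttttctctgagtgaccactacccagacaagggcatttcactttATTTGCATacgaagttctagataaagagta
H1f2, chr13:23738657-23738806, plus strand: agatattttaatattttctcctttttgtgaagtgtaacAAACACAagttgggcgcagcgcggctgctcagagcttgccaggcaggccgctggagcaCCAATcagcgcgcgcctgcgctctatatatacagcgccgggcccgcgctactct
H4c17, chr13:21811596-21811745, plus strand: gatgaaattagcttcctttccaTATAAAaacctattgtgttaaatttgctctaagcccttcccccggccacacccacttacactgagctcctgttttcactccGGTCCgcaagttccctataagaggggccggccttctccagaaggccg
In the full windows of 250 bases before to 50 after the start, CCAAT stood in 45 of 45 promoters of H1, H2A, H2B and H3 and in 3 of 11 of H4, against 37.4% of all 32851 promoters. The octamer stood in 6 of 15 H2A and 7 of 15 H2B promoters and in 0 of 5 of H1, 0 of 10 of H3 and 0 of 11 of H4 (1.74% of all). These promoters are not all separate, since windows of neighbouring H2A and H2B genes on opposite strands overlap. The same octamer counts in both classes for H2ac1 with H2bc1, H2ac8 with H2bc8 and H2ac12 with H2bc12. H2bc6 is counted with 2 promoters. AAACACA was found in 4 of 5 H1 promoters (7.18% of all) and GGTCC in 10 of 11 H4 promoters (45.5% of all). TATAAA stood in 33 of the 56 member promoters (13.6% of all). These are matches of letters, and binding was not measured.

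The depth is not stated and was estimated from the steps between low values at 9400000 to 24600000 reads per library. At this depth a member in a library rested on a median of 250 estimated reads, from 6 to 6891, over the 57 single-exon members. The target Cd82 measured 7.65 and 6.91 RPKM with the knockdown against 43.9 and 13.8 in its controls, and 15.2 with the overexpression against 11.9 in that control. The libraries differed widely in lineage markers. The 13 mast cell and basophil markers summed to 77648 and 16324 RPKM in the knockdown controls, to 8600 and 7515 in the knockdown, to 6450 in the overexpression control and to 25396 in the overexpression. The 9 erythroid markers found summed to 171 RPKM in control replicate 1, 696 in the KAI1 overexpression and 2232 to 2861 in the other 4 libraries. Of these 9 markers, 7 were lower in control replicate 1 than in control replicate 2. Gata1 and Epor went the other way, at 87.3 and 15.6 RPKM in control replicate 1 and 53.5 and 14.8 in control replicate 2. The labels call the cells basophil; of the basophil markers, Mcpt8 was present in every library (116 to 3908 RPKM) and Fcer1a was at 0 in control replicate 2 and knockdown replicate 1. Of the stem and progenitor markers, Cd34 was at 0.859 RPKM in control replicate 1 and 15.9 to 77.9 RPKM elsewhere. Myb, Tcf7 and Meis1 were also lowest in control replicate 1, and Flt3 did not exceed 0.358 RPKM. Kit, which is on the mast cell list too, went the other way. It was highest in control replicate 1, at 437 RPKM against 83.3 to 189 elsewhere. Lymphoid markers summed to 0.837 RPKM or less, with Pax5 and Cd3e at 0 in all 6 libraries. The part of these cell mixtures in the histone values was not tested. In bulk RNA, fewer cells of a kind and less RNA per cell cannot be told apart.

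Histone mRNA was most abundant in the overexpression control, next in KAI1 knockdown replicate 2, and lowest in the knockdown controls. All 62 entries together summed to 1681 and 1512 RPKM in the knockdown controls. With KAI1 knocked down the sum was 2362 and 4079 RPKM. The overexpression control reached 6476 RPKM and the overexpression 2169 RPKM. Both knockdown libraries thus lay above both of their controls, with means of 3221 ± 1214 (SD, n = 2) against 1596 ± 119 (SD, n = 2). The knockdown replicates differed from each other by 1.73-fold. In the other arm the control stood 2.99-fold above the KAI1 overexpression, with 1 library on each side. The 2 control groups were themselves far apart, since the overexpression control exceeded the higher of the knockdown controls by more than the whole spread within the knockdown arm.

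The core classes followed the same order only in part. H2A, which forms the outer dimers of the nucleosome with H2B, summed to 785 and 343 RPKM in its controls, 746 and 1325 in the knockdown, 3033 in the overexpression control and 840 with overexpression. For H2B the sums were 259 and 467 in the controls, 600.5 and 935 in the knockdown, 1019 in the overexpression control and 363 with overexpression. H3, which with H4 makes the central tetramer, stood at 223 and 226 in the controls, 365 and 673 in the knockdown, 972 in the overexpression control and 341 with overexpression. H4 followed closely, at 344 and 375, 574 and 1028, 1335 and 555 in the same order of libraries, which holds wherever 3 pairs of values are given. Linker H1 moved least, at 63.2 and 85.0 in the controls, 66.0 and 98.1 in the knockdown, 95.3 in the overexpression control and 61.9 with overexpression. Knockdown and control sums did not overlap for H2B, H3 and H4, while for H1 and H2A they did. The H2A and H2B sums, and the shares taken from them, include both entries of H2ac19, H2ac23 and H2bc23.

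**Figure D1:**
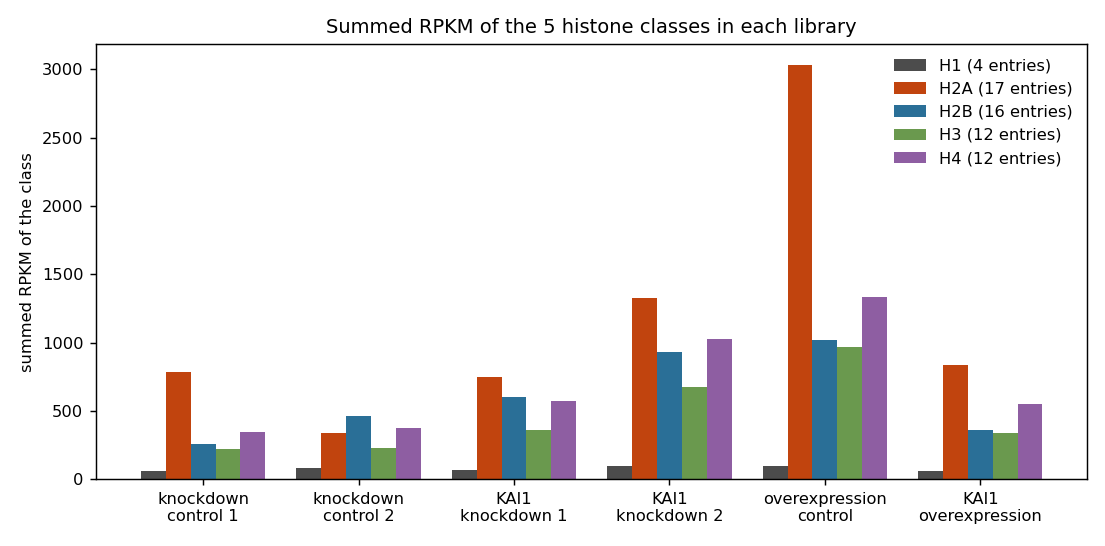
Summed RPKM (vertical axis) of the entries of each histone class (coloured bars) in each of the 6 libraries, 1 bar per class and library with no error bar. H2A reaches 3033 RPKM in the overexpression control and is at 343 in knockdown control replicate 2, while the H1 bars stay between 61.9 and 98.1.

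Expressed as a share of the summed histone RPKM, H3 and H4 kept a narrow range and H2A and H2B did not. H3 made up 13.3% to 16.5% and H4 20.5% to 25.6% of the sum over the 6 libraries. H2A made up 46.7% in control replicate 1 but 22.7% in control replicate 2, and H2B 15.4% and 30.9%. In the knockdown libraries the shares lay between those of the controls, at 31.6% and 32.5% for H2A and 25.4% and 22.9% for H2B. The share of H1 was lowest in the overexpression control (1.47%) and highest in control replicate 2 (5.62%). The ratio of knockdown to control means was 1.11 for H1, 1.84 for H2A, 2.12 for H2B, 2.31 for H3 and 2.23 for H4.

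The KAI1 knockdown was compared with its control entry by entry. Of 60 members with a mean of at least 1 RPKM in this arm, 37 (61.7%) stood higher in both knockdown libraries than in both controls, where 21.5% of all 10113 entries tested did so. One member, H1f2, stood lower in both (17% of all entries). By class the count of higher members was 2 of 4 for H1, 5 of 17 for H2A, 11 of 14 for H2B, 9 of 12 for H3 and 10 of 12 for H4. With a gap of at least 2-fold between the groups, on the RPKM + 1 scale, 3 members were higher (H2bc1, H3c7 and H4c3) and 0 lower; among all entries 0.188% were that far above and 0.326% that far below. With 1 library left out, so that 1 group had a single library, the count of members at least 2-fold higher was 26 without knockdown replicate 1 (1.17% of all entries), 21 without control replicate 2 (5.78%), 15 without control replicate 1 (0.544%) and 3 without knockdown replicate 2 (0.524%). Without the 2-fold gap, the count of higher members was 53 with control replicate 1 left out (42% of all entries) and 42 with control replicate 2 left out (44.2%). It was 55 (32%) and 37 (29.2%) with knockdown replicates 1 and 2 left out in turn. The count of lower members was then 2 (36%), 4 (41.3%), 1 (25.7%) and 2 (25.8%) in the same order. The median log2 difference was 0.71 for H1, 0.92 for H2A, 1.20 for H2B, 1.10 for H3 and 1.23 for H4, and 0.03 over all entries tested. Members ranged from -0.34 to 1.66 on the log2(RPKM + 1) scale, on which changes of low entries appear smaller than they are. The 2 members under the mean of 1 RPKM were the H2bc23 entries.

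None of these differences passed the test with 2 libraries a group. limma called 0 of 60 members in either direction (Benjamini-Hochberg adjusted p from 0.83 to 0.937), while it called 0.00989% of all entries higher and 0.0198% lower. At an unadjusted p under 0.05 there were 21 members, all of them higher, against 1.81% of all entries. Without control replicate 2, limma called 10 members higher, namely H2ac11, H2bc8, H2bc12, H2bc18, H2bc22, H3c1, H3c7, H3c10, H4c3 and H4c8 (adjusted p from 0.0182 to 0.0464); 4.04% of all entries were called higher in that fit. It rests on 1 control library, assumed to vary like the knockdown pair. Without control replicate 1, knockdown replicate 1 or knockdown replicate 2 it called 0 members, with 26, 15 and 1 higher at an unadjusted p under 0.05, against 7.04%, 0.504% and 0.237% of all entries. Among the 24 members named here for their level or their difference, leaving out 1 library moved the log2 difference of 20 by over 1.5 times; H2bc1, H2bc13, H3c3 and H4c3 were the others. The median over all members was 0.59 without knockdown replicate 2, against 1.06 with all libraries.

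**Figure D2:**
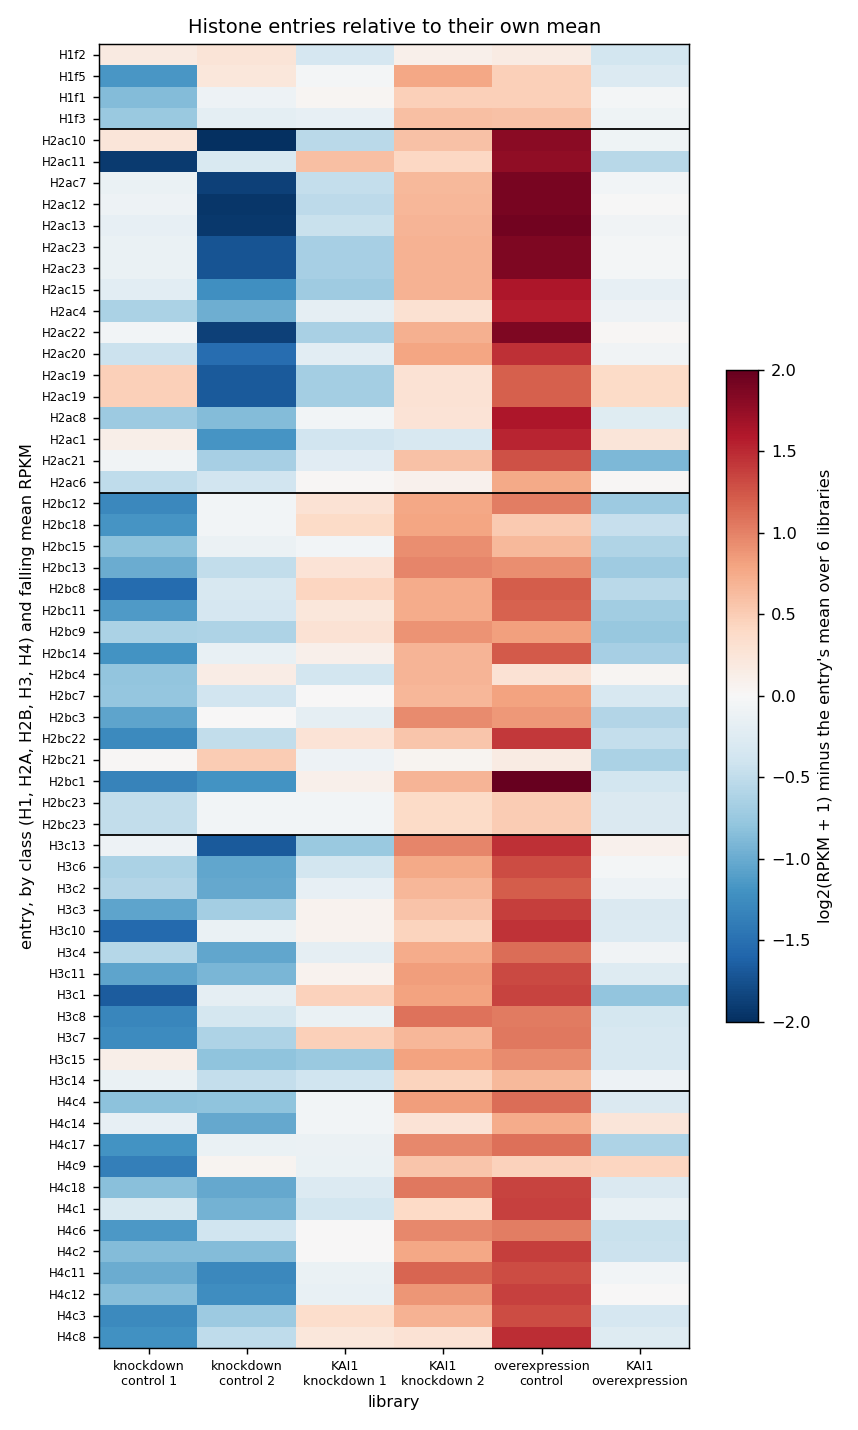
Heat map of the 61 entries with a class (rows, by class and falling mean) in 6 libraries (columns); the colour is log2(RPKM + 1) minus the mean of the entry over the 6 libraries, red above and blue below it. The overexpression control column is red in nearly every row, knockdown control replicate 2 is the lowest library in 14 of 17 H2A rows, and control replicate 1 in 14 of 16 H2B rows.

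H2A had the highest class sum except in knockdown control replicate 2, where H2B and H4 were higher, and was the least uniform class between controls. The median H2A entry was the lowest of the core classes in that library (13.7 RPKM) and in knockdown replicate 1 (30.3 RPKM). It was the highest of them in control replicate 1 and in both libraries of the overexpression arm. H2ac10 (chr13:23625780-23626172 on mm9, as all coordinates of members) had the highest mean of all members, at 239 and 49.95 RPKM in its controls, 139.8 and 305 in the knockdown, 713 in the overexpression control and 192 with overexpression. Its knockdown libraries fell on either side of control replicate 1, and its log2 difference of 0.91 (SE 0.88) turned to -0.21 without control replicate 2. H2ac7 (chr13:23666340-23666732) stood at 53.2 and 15.3 in the controls, 41.8 and 91.8 in the knockdown, 219.8 in the overexpression control and 56.4 with overexpression. H2ac12 (chr13:22127035-22127421) gave almost the same series, at 52.3 and 13.9, 39.0 and 90.1, 214 and 56.1. In both genes the groups of the knockdown arm overlapped. H2ac11 (chr13:22134346-22134818) departed from the other H2A genes, with 38.2 and 118 RPKM in its controls, 222 and 197 in the knockdown, 502 in the overexpression control and 99.6 with overexpression. Its groups did not overlap and the log2 difference was 1.62 (SE 0.60), or 0.82 without control replicate 1. It was the 1 member that was higher in knockdown replicate 1 than in replicate 2. The median of the H2A class was 0.20 without control replicate 2, 0.35 without knockdown replicate 2, 1.49 without control replicate 1 and 1.47 without knockdown replicate 1.

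H2B genes were higher in both knockdown libraries more evenly. H2bc12 (chr13:22127756-22128136), whose promoter is printed above, stood at 29.7 and 70.9 RPKM in its controls, 90.2 and 127 in the knockdown, 151 in the overexpression control and 44.5 with overexpression (knockdown log2 difference 1.20, SE 0.50, and 0.59 without control replicate 1). H2bc18 (chr3:96073623-96074115) gave 24.3 and 54.1 in the controls, 73.2 and 98.1 in the knockdown, 80.9 in the overexpression control and 40.6 with overexpression. For H2bc18 the highest library was therefore knockdown replicate 2, not the overexpression control. H2bc15 (chr13:21845992-21846372) stood at 30.8 and 50.9, 53.1 and 106, 87.2 and 36.1, with knockdown replicate 1 only just above the higher control. H2bc13 (chr13:21807632-21808012) stood at 24.6 and 35.2 in the controls, 60.6 and 99.5 in the knockdown, 96.1 in the overexpression control and 29.9 with overexpression (log2 difference 1.37, SE 0.37). Among the members of lower level, H2bc1 (chr13:24025642-24026025), known as a testis histone gene, had a wide gap. Its controls were at 1.86 and 2.15 RPKM, with 6.70 and 10.5 in the knockdown, 30.03 in the overexpression control and 4.58 with overexpression (knockdown log2 difference 1.65, SE 0.30). The control values rest on 13 and 8 estimated reads. Without control replicate 1 the H2B median was 0.67.

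Among H3 genes the knockdown libraries were above both controls in 9 of 12. H3c13 (chr3:96072617-96073027) was an exception, at 47.2 and 15.2 RPKM in its controls, 30.2 and 102 in the knockdown, 142 in the overexpression control and 54.1 with overexpression. H3c6 (chr13:23653824-23654234) stood at 33.2 and 24.8, 39.8 and 88.6, 130.02 and 50.5. H3c2 (chr13:23844249-23844659) was much like it, at 30.3 and 22.2, 41.2 and 73.6, 108 and 42.9. In both, knockdown replicate 2 was far above replicate 1, and the groups did not overlap. H3c3 (chr13:23836911-23837390) showed the groups further apart relative to their spread, at 19.2 and 25.0 in the controls, 42.7 and 61.2 in the knockdown, 108 in the overexpression control and 33.1 with overexpression (log2 difference 1.19, SE 0.30). H3c1 (chr13:23853722-23854255) stood at 10.2 and 30.3 in the controls, 47.8 and 60.4 in the knockdown, 89.2 in the overexpression control and 19.4 with overexpression (log2 difference 1.55, SE 0.56, and 0.81 without control replicate 1). Without knockdown replicate 2 the H3 median was 0.67.

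H4 stood near H2B and H3 in its class median. H4c4 (chr13:23673471-23673782) was its most abundant member, at 66.8 and 67.3 RPKM in its controls, 114 and 212 in the knockdown, 257 in the overexpression control and 96.6 with overexpression. The controls were nearly equal here, and the knockdown libraries, both above them, were far from each other. H4c11 (chr13:21826965-21827276) had a log2 difference of 1.66 (SE 0.50), close to that of H2bc1 and the highest on the RPKM + 1 scale alone, at 16.2 and 12.9 in the controls, 30.1 and 75.4 in the knockdown, 82.8 in the overexpression control and 31.9 with overexpression. H4c3 (chr13:23790007-23790318) stood at 10.3 and 15.6 in the controls, 34.1 and 43.3 in the knockdown, 66.8 in the overexpression control and 20.9 with overexpression (log2 difference 1.53, SE 0.31). H4c17 (chr13:21903615-21904019), also shown above by its promoter, stood at 22.9 and 49.1, 49.2 and 105, 116 and 34.4. Its lower knockdown library was level with its higher control. H4c14 (chr3:96066893-96067240) stood at 72.4 and 39.6 in the controls, 78.7 and 99.3 in the knockdown, 137 in the overexpression control and 96.5 with overexpression. H4c9 (chr13:22132685-22133221) stood at 21.7 and 59.6, 52.2 and 85.0, 79.9 and 78.3, and it was the member least changed between the libraries of the overexpression arm. H4c14 and H4c9 are the 2 genes with the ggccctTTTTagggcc stem-loop. The H4 median was 0.77 without knockdown replicate 2.

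The linker genes split. H1f2 (chr13:23830676-23832236), the most abundant H1 member, stood at 47.9 and 50.9 RPKM in its controls, 33.4 and 45.2 in the knockdown, 47.6 in the overexpression control and 32.5 with overexpression. It was thus lower in both knockdown libraries, by a log2 difference of -0.34 (SE 0.27) that is little more than its standard error. H1f1 (chr13:23855537-23856283) went the other way, at 7.41 and 13.2 in the controls, 14.7 and 20.3 in the knockdown, 20.3 in the overexpression control and 13.8 with overexpression. H1f3 (chr13:23646901-23649877) was low throughout, at 1.56 and 2.75, 2.79 and 5.47, 5.40 and 3.02, with 1 control and 1 knockdown library nearly equal. H1f5 (chr13:21871752-21872423) overlapped between groups, at 6.35 and 18.2 in the controls, 15.0 and 27.1 in the knockdown, 22.0 in the overexpression control and 12.6 with overexpression. The H1 median of 0.71 became 0.25 without control replicate 1 and 0.36 without knockdown replicate 2.

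**Figure D3:**
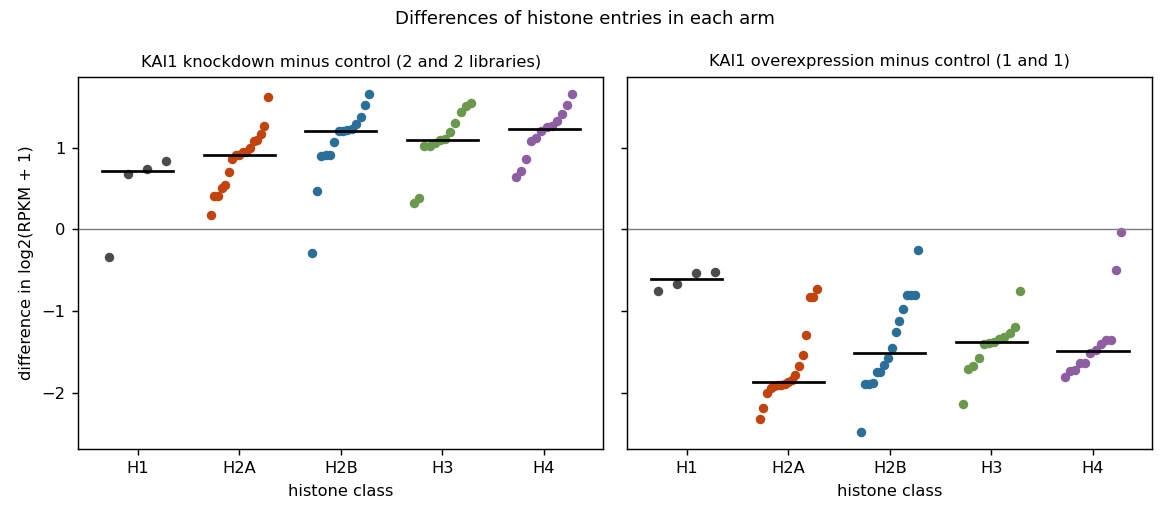
Differences of single entries (points) in log2(RPKM + 1), with the class median as a black line; the left panel is KAI1 knockdown minus control (means of 2 libraries each, 59 entries with a class) and the right panel KAI1 overexpression minus control (1 library each, 61 entries). On the left the class medians lie between 0.71 and 1.23 and H1f2 is the lowest H1 point, and on the right all points lie below 0, with medians from -1.86 for H2A to -0.60 for H1.

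In the overexpression arm all 62 members stood lower with KAI1 raised. Of 62 members, 47 (75.8%) were at least 2-fold lower on the RPKM + 1 scale, against 5.21% of 9936 entries, and 0 were at least 2-fold higher, against 4.92%. There is no replicate in this arm and no test. The count was 0 of 4 for H1, 14 of 17 for H2A, 11 of 16 for H2B, 11 of 12 for H3 and 10 of 12 for H4. The median log2 difference was -1.86 for H2A, -1.51 for H2B, -1.38 for H3, -1.49 for H4 and -0.60 for H1, and 0.01 over all entries. Single members ranged from -2.48 (H2bc1) to -0.03 (H4c9). The members less than 2-fold lower on the RPKM + 1 scale were all 4 of H1, both H2ac19 entries, H2ac6, H2bc4, H2bc18, H2bc21, both H2bc23 entries, H3c14, H4c9 and H4c14. Without the added 1, the H2bc23 entries were 3.23-fold and H2ac6 2.09-fold lower.

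The overexpression control was the highest of the 6 libraries in 50 of 62 members (80.6%), where it was the highest in 12.4% of 10112 entries. That held for 17 of 17 entries of H2A, 11 of 12 of H3, 11 of 12 of H4, 9 of 16 of H2B and 1 of 4 of H1. The KAI1 overexpression stood at 2169 RPKM summed, between the knockdown controls and the lower knockdown library. The difference in this arm therefore sets a control above all other libraries against an overexpression library inside the range of the knockdown arm. Of the KAI1 knockdown libraries, replicate 2 was above replicate 1 in 61 of 62 members, against 54.8% of all entries; of their controls, replicate 2 was above replicate 1 in 36 of 62.

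Genes known to give polyadenylated transcripts as well had a smaller median difference in each arm. Of H1f2, H2ac6, H2bc4 and H2bc21, 1 was higher in both knockdown libraries and 1 lower, with a median log2 difference of 0.09. In the overexpression arm 0 of 4 were at least 2-fold lower on the RPKM + 1 scale (median -0.63). The shares over all entries were 21.5% higher, 17% lower and, in the overexpression arm, 5.21% at least 2-fold lower. The low member H2ac6 misses that size only through the added 1: its RPKM were 2.09-fold lower with overexpression and 1.93-fold higher in the knockdown. H2bc4 (chr13:23776068-23784349) stood at 23.1 and 45.1 RPKM in its controls, 31.1 and 65.2 in the knockdown, 49.8 in the overexpression control and 41.6 with overexpression. H2bc21 (chr3:96025044-96027661) stood at 9.57 and 13.9, 8.71 and 9.82, 10.6 and 5.69, and H2ac6 (chr13:23773336-23775828) at 0.743 and 0.896, 1.53 and 1.63, 3.20 and 1.53. The 4 genes summed to 81.3 and 111 RPKM in their controls and 74.8 and 122 in the knockdown, so the groups overlapped, and to 111 in the overexpression control and 81.4 with overexpression. The difference between these 4 genes and the other members was not tested.

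The 2 knockdown controls disagreed by class in a way that the sum over all classes hides. Control replicate 1 was below replicate 2 in 16 of 16 H2B entries and 4 of 4 H1 entries, but in 2 of 17 H2A entries (H2ac6 and H2ac11); among all entries it was below in 49.2%. H3 was split 6 of 12 and H4 7 of 12. The median of replicate 2 minus replicate 1 was -1.60 on the log2 scale for H2A, 0.74 for H2B, 0.66 for H1, -0.11 for H3 and 0.01 for H4, and -0.01 over all entries. Of the 11 variant histones found, H1f10 and Macroh2a2 were at 0 in both controls. Of the other 9, 8 were lower in replicate 1, among them H2az1, H2az2, H2ax and Macroh2a1 of the H2A family. H2aj, an H2A gene outside the clusters, had the opposite order at 203 and 79.4 RPKM in its controls. Where the deposited entry spans the coding sequence alone, replicate 1 was above replicate 2 in 9 of 9 H2A, 4 of 4 H3, 4 of 8 H4 and 0 of 8 H2B entries. Where it is longer, the counts were 6 of 8 for H2A, 2 of 8 for H3, 1 of 4 for H4 and 0 of 8 for H2B. The part of these spans in the disagreement was not tested.

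**Figure D4:**
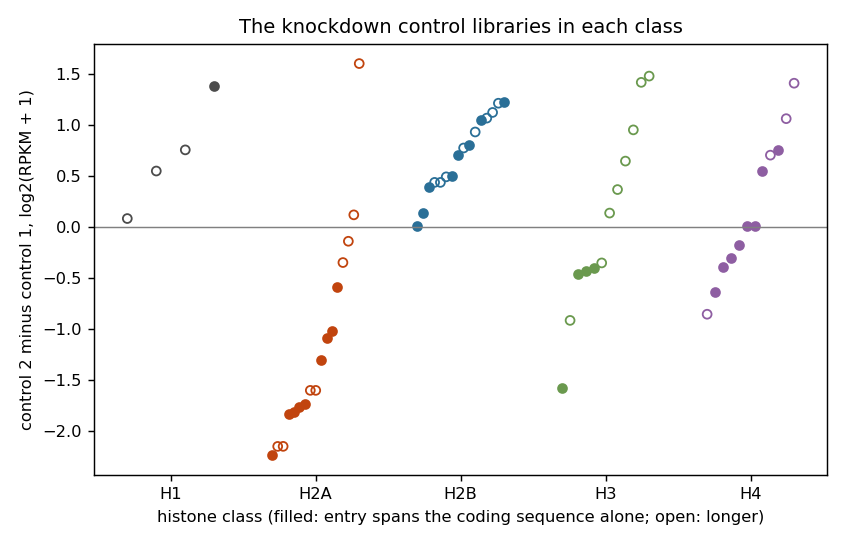
Control replicate 2 minus control replicate 1 in log2(RPKM + 1) for each entry (points), by histone class; filled points are entries that span the coding sequence alone and open points are longer entries. H2A points lie mostly below 0, with a median of -1.60, and all H2B points lie above 0, with a median of 0.74.

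Members of a class share much of their sequence, so their values are not independent. By 32-base windows of the annotated coding sequence, a median of 86.9% of a member's windows also occur in another gene. The class medians were 91.7% for H2A, 90.1% for H3, 87.4% for H2B, 77.8% for H4 and 16.1% for H1, and 10 entries have a coding sequence identical to that of another: the 6 paired entries of H2ac19, H2ac23 and H2bc23, and the gene pairs H3c14 with H3c15 and H4c17 with H4c18. The sources used here do not say how reads with several placements were counted, so single values of such members are uncertain. Class sums depend less on how reads are divided among copies, but they count a read repeatedly if it was counted at every copy. The H2A sums hold both entries of H2ac19 (53.0 RPKM each in control replicate 1) and both of H2ac23 (44.3 RPKM each). Of the 8 members with under 50% shared windows, 4 were higher and 1 lower in both knockdown libraries (median log2 difference 0.69), and 2 were at least 2-fold lower in the overexpression arm. Of the other 53 with a transcript, 33 of 51 tested were higher in the knockdown and 44 were at least 2-fold lower in the overexpression arm. The 8 are all 4 H1 entries, H2ac1, H2bc21, H4c14 (12.5% of its windows shared) and H2bc1 (43.6%). Sharing and histone class can therefore not be told apart in this split. By position, 34 of 50 tested entries of chromosome 13 and 3 of 10 of chromosome 3 were higher in both knockdown libraries. Beside these counts, 21.5% of all entries were higher and 17% lower, and 5.21% were at least 2-fold lower in the overexpression arm.

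Variant histones, made outside S phase as well, had a smaller median difference than the replication-dependent genes, a difference that was not tested. Of 9 tested, 3 were higher and 1 lower in both knockdown libraries, with a median log2 difference of 0.34, and limma called 0. The shares over all entries tested were 21.5% higher and 17% lower. H2az1, the most abundant, stood at 835 and 1105 RPKM in its controls, 815 and 834 in the knockdown, 1157 in the overexpression control and 897 with overexpression. H2ax, whose mRNA is known to end in either form, was the 1 variant of 9 at least 2-fold lower in the overexpression arm (5.21% of all entries). It stood at 51.4 and 81.4, 80.8 and 98.3, 137 and 54.7.

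Genes that transcribe, process and degrade histone mRNA had small differences. Of 20 genes tested, 6 were higher and 2 lower in both knockdown libraries (median log2 difference 0.18), and 0 were 2-fold apart in the overexpression arm. Over all entries tested, 21.5% were higher and 17% lower in both knockdown libraries. Slbp, which binds the stem-loop, stood at 21.5 and 21.9 RPKM in its controls, 26.4 and 28.2 in the knockdown, 37.4 in the overexpression control and 22.1 with overexpression. Its order of libraries was close to that of the summed histones, with the overexpression control highest. Npat, the coactivator of the histone clusters, stood at 2.82 and 2.72, 2.96 and 3.63, 2.42 and 1.98. Its log2 difference in the knockdown was 0.18 (SE 0.24).

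Histone chaperones and importers gave 7 of 20 higher (21.5% of all entries) and 1 lower (17%) in both knockdown libraries, with a median of 0.27. Npm1, the most abundant of them, stood at 263.5 and 986 RPKM in its controls, 745 and 682 in the knockdown, 772 in the overexpression control and 863 with overexpression. Genes of G1/S and DNA replication gave 15 of 30 higher (21.5% of all entries) and 0 lower (17%) in both knockdown libraries, with a median of 0.33. In the overexpression arm 1 of these 30 genes was at least 2-fold lower (5.21% of all entries). They summed to 1120 and 1480 RPKM in its controls, 1690.4 and 1625 in the knockdown, 1643 in the overexpression control and 1313 with overexpression. The replication helicase gene Mcm7 stood at 87.6 and 173, 220.1 and 190.2, 167 and 144. limma called 0 genes in any of these lists; 1 gene of the G1/S list, and 0 of the processing and the chaperone list, had an unadjusted p under 0.05.

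Of 10 listed RNAs without a poly(A) tail, 4 matched an entry by symbol, and of these Terc was at 0 throughout. limma called 0 of the other 3, and 0 of them had an unadjusted p under 0.05. Vaultrc5, a vault RNA, stood at 12.6 and 1.31 RPKM in its controls, 4.05 and 2.67 in the knockdown, 6.76 in the overexpression control and 8.28 with overexpression. Its highest library was thus control replicate 1. Rmrp, the RNA of RNase MRP, stood at 481 and 213 RPKM in its controls, 437 and 463 in the knockdown, 1284 in the overexpression control and 466 with overexpression. Rpph1, the RNA of RNase P, stood at 104 and 74.9 in the controls, 119.6 and 169 in the knockdown, 337 in the overexpression control and 171 with overexpression. Rmrp and Rpph1 were both highest in the overexpression control, as most histone members were, and the next highest values of Rpph1 were in the overexpression and knockdown replicate 2. An entry without a symbol on chromosome 17 (chr17:39979942-39985774) stood at 7192 and 4448 RPKM in its controls, 7101 in knockdown replicate 1 and 7777 in the overexpression. It was listed at 0 in knockdown replicate 2 and the overexpression control, the 2 libraries with the highest histone sums. The part of library preparation in the histone values was not tested.

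**Figure D5:**
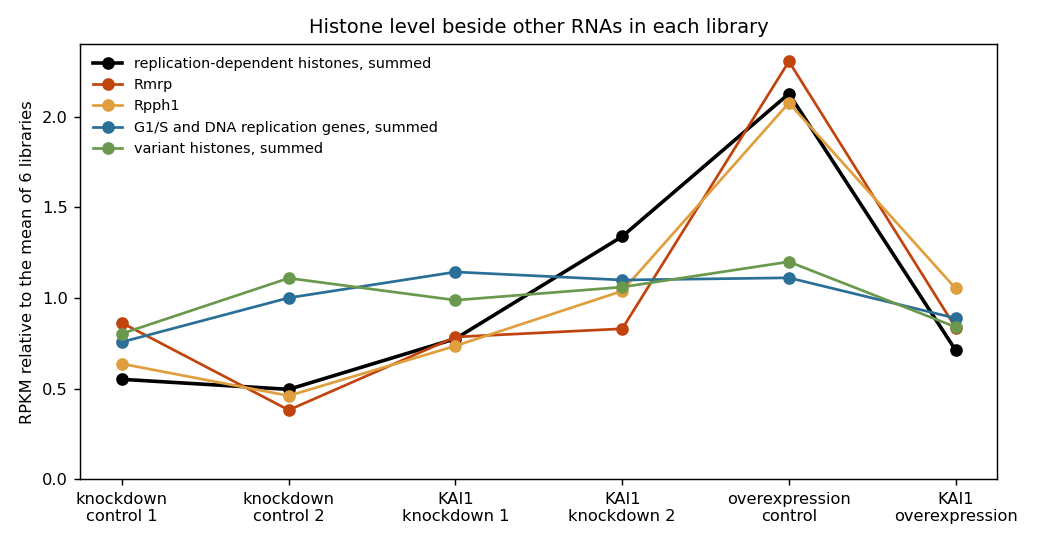
RPKM relative to the mean of the 6 libraries (vertical axis, from 0) for the summed replication-dependent histones, Rmrp, Rpph1, the summed G1/S and DNA replication genes and the summed variant histones (lines, 1 point per library; the lines join libraries for legibility only). Histones, Rmrp, Rpph1 and, less far above the rest, the variant histones (3300 RPKM) peak in the overexpression control, while the G1/S sum stays between 1120 and 1690.4 RPKM.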

How the data were processed

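Each of the 6 deposited files gives RPKM per RefSeq entry, computed by the authors. TopHat2 2.0.9, Bowtie, Cufflinks and mm9 are named in the submitters' processing notes. Each file held 23170 entries, of which 24 were repeats. Symbols came from RefSeq (22840 entries) or GENCODE (125 entries). The depth was estimated from whole-read steps of low values, and counts were not tested. For the knockdown, limma 3.58.1 (R 4.3.3) was fitted with a trend to log2(RPKM + 1) of the 10113 entries whose mean reached 1 RPKM. The test was two-sided and adjusted by Benjamini and Hochberg at 0.05. The fit was also run on simulated data with less spread than the members have, so that run does not show its power here. The overexpression arm, with 1 library a group, was described by a 2-fold rule. The members and lists were chosen with earlier results of these data known. Values in every library are given for the 4 highest members of each class and for up to 5 of the largest rises and falls without overlap. The 4 polyadenylated genes were added. Of listed genes that are no members, at most 4 of the highest, with Slbp and Npat, were eligible; H2ax, H2aj, the other variants named by symbol and the unnamed entry of chromosome 17 were chosen after their values were seen. Alternatives covered pseudocount, filter, scaling, trend, replicate block, repeated or shared entries and each library left out.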

Additional observations from a re-analysis of the deposited data

How the results depend on the processing

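With the replicate number as a block, limma called 0 members higher and 0 lower, as it did without. The deviations of samples of the same number had a correlation of -0.0754. With 2 libraries a group, this does not show whether samples of the same number were handled together. Leaving out 1 library gave 0 to 10 members called higher. Without overlap between the groups left, 1 to 4 members were lower (25.7% to 41.3% of all entries), 37 to 55 higher (29.2% to 44.2%) and 3 to 26 at least 2-fold higher (0.524% to 5.78%). Over the same settings the class median spanned 0.67 to 1.61 for H2B, 0.67 to 1.57 for H3, 0.20 to 1.49 for H2A and 0.59 to 1.47 for all members. The difference of H2ac10 ranged from -0.21 (without control replicate 2) to 2.03 (without control replicate 1). In that fit without control replicate 2, H2ac11, H2bc12, H2bc18, H3c1 and H4c3 passed among the named members. With repeated accessions left out, the sum over all members in control replicate 1 was 1479 RPKM. An alternative chosen after seeing the data kept only the 8 members under 50% shared windows, among them all 4 H1 entries. Of the 8 members, 4 were higher in both knockdown libraries (21.5% of all entries), 1 of them with a 2-fold gap (0.188%). In the overexpression arm 2 were at least 2-fold lower (5.21%). The cause was not tested. Of the counts, medians and sums recomputed, 14 moved by more than 1.5 times (counts) or than the spread between replicates, and 207 did not. That spread was wide, so these counts do not show that the medians are stable. The H2A median of 0.92 had a spread of 0.91, and its fall to 0.20 counts as not moved. Medians with the replicate block equal the main ones by construction. Sums of the overexpression arm were judged by the relative spread of the knockdown arm. Of the differences of single members, 1 reversed, 5 passed the test only with a library left out, and 210 kept their direction and side of the threshold. Depth limits members of few reads, such as H2bc1, and the overexpression arm has no error.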
